A study of Homo sapiens with 12 samples.

Results

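Levels of 10 imprinted genes were read across every library of an RNA-seq series on human cancer cell lines. The genes, PEG10, SGCE, MEST, IGF2, H19, KCNQ1OT1, CDKN1C, MEG3, DLK1 and PEG3, were chosen by symbol from the 57500 gene IDs of the count table, and each had 1 row there. PEG10 was selected on its higher level in SW620 than in SW480, and SGCE is its known neighbour, so for both genes the difference between SW480 and SW620 is given as a description with no test. The other 8 genes were chosen as imprinted genes, with earlier results of these data known, and carry the test across all genes.

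The series holds 12 libraries in 4 groups of 3 biological replicates, from 3 established cell lines. SW480, from a primary colorectal tumour, and SW620, from a metastasis of the same patient, both grew untreated in DMEM with serum. PEO4, an ovarian cancer line, grew in RPMI medium with serum, and was either left in control medium or given TGF-β, a cytokine, at 10 ng/mL over 6 days. Total RNA was sequenced after removal of ribosomal RNA. Each group is a single line, and SW480 and SW620 differ as lines as well as by site of origin.

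Imprinted genes are expressed mainly from the copy inherited from a single parent, under control of DNA methylation set in the egg or sperm. Many act on fetal growth, and clusters of them share imprinting control regions, so that paternally expressed growth promoters such as IGF2 lie close to maternally expressed RNAs such as H19. Altered imprinting or altered levels of these genes are a known feature of colorectal, ovarian and other cancers. The libraries here report RNA summed over both parental copies, so neither imprinting nor allele use was measured.

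Library totals ran from 14531420 to 22028956 counts. The level of a gene is given as CPM, its count as a share of the TMM-scaled library total. A count of 0 allows up to 3 counts, which is 0.142 to 0.173 CPM depending on the library, and this limit covers counting error only. The colorectal marker CDX2 had 292 to 494 counts in the SW libraries and 1 to 3 in PEO4, and the ovarian marker PAX8 had 9591 to 11577 counts in PEO4 and 634 to 1069 in the SW libraries. Of 5 colorectal markers tested between PEO4 control and the SW lines, 4 were lower in PEO4. Of 6 ovarian markers 5 were higher and 1 lower, where 28.9% of all genes were higher and 29.1% lower. EPCAM overlapped, at 2197 to 3556 counts in PEO4 and 1352 to 3774 in the SW libraries. SOX17 was lower in PEO4, at 27 to 42 against 39 to 74, a call lost in 4 of 19 alternatives. CDX1 and KRT20 had 0 to 6 and 0 to 24 counts in the SW libraries. Replicate 2 of SW480 and of SW620 were the shallowest libraries and stood apart in long nuclear RNAs, as described with KCNQ1OT1. SW620 replicate 3 held reads of genes typical of PEO4: for 6 genes at 100 CPM or more in PEO4 and at a median under 0.5 CPM in the SW libraries, its level was 1.11% of that in PEO4, against 0.0631% to 0.27% in the other SW libraries. Summed over 12 markers of blood, vessel, stroma and liver cells, levels were 5.8 to 7.07 CPM in SW480, 13.2 to 25.9 in SW620, 7.3 to 9.36 in PEO4 control and 6.84 to 7.89 with TGF-β. Their part in any result was not tested.

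PEG10 and SGCE were nearly silent in SW480 and well expressed in SW620 and PEO4. PEG10 (ENSG00000242265, chr7:94656325-94669695, plus strand, positions from GENCODE 29 on GRCh38) is a paternally expressed gene derived from a retrotransposon, which keeps gag-like and pol-like reading frames and is needed for the placenta. SGCE (ENSG00000127990, chr7:94524204-94656572, minus strand) encodes epsilon-sarcoglycan, a membrane protein mutated in myoclonus-dystonia, and is also paternally expressed. The genes start head to head: in GENCODE 29 their 5′ ends overlap by 248 bases, of which 219 are exonic in both, and in RefSeq the starts lie 192 bases apart. Strand use in counting is not given in the sources used here, so reads in that overlap cannot be placed on either gene.

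PEG10 makes 2 proteins from a single mRNA by shifting the ribosome back by a base at a heptamer inherited from the retrotransposon. The 90 coding bases that end at the stop codon of the upstream reading frame are printed, from transcript ENST00000482108.1, chr7:94664445-94664534 on the plus strand of GRCh38, with the heptamer (chr7:94664510-94664516) in capitals, because counts over this mRNA stand for both proteins:
PEG10 coding end: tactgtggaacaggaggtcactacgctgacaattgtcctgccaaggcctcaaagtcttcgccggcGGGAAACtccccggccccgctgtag
The heptamer GGGAAAC begins at base 954 of the coding sequence, and the upstream frame closes after 325 codons. Read on in the shifted frame, the open sequence runs to 708 residues. Of 19658 protein-coding genes, 0.595% held GGGAAAC on the sense strand in the central 90 bases of their longest transcript. The PEG10 window was placed otherwise, at the end of the upstream frame, in a transcript taken because it holds the heptamer. The share is therefore no measure of how rare the heptamer is at such a place. Gene-level counts do not tell the products apart.

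In SW480 PEG10 had 29, 31 and 34 counts, or 1.46, 1.76 and 1.76 CPM. In SW620 it had 3367, 2692 and 4930 counts, or 162, 139 and 233 CPM. All 3 SW620 libraries lay far above all 3 SW480 libraries. The log2 difference was 6.76 ± 0.26 (SE), about 108-fold. The shares of PEO4-like reads given above correspond to 23.4, 20.0 and 18.7 of the PEG10 counts in SW480 replicates 1, 2 and 3, and to 2.5% of the PEG10 counts in SW620 replicate 3. Those shares come from genes picked for low levels in the SW libraries, with the limit of 0.5 CPM set after seeing the data. They may be too low or too high. Their part in the SW480 level was not tested.

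SGCE had 9, 13 and 6 counts in SW480, or 0.454, 0.739 and 0.311 CPM. In SW620 it had 284, 209 and 385 counts, or 13.7, 10.8 and 18.2 CPM. The lines did not overlap for SGCE either, and the log2 difference was 4.84 ± 0.37 (SE), about 28.6-fold. Leaving out SW480 replicate 2, the SW480 library with the most SGCE counts, gave 5.21. Among SW620 libraries PEG10 and SGCE kept 1 order, highest in replicate 3 and lowest in replicate 2. MEST and the colorectal markers LGR5 and EPCAM had the same order there, so it is not particular to the pair.

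In PEO4 both genes stood higher than in any SW library. PEG10 read 695, 700 and 654 CPM in the controls and 418, 521 and 383 CPM with TGF-β. Every treated library was below every control. PEG10 fell by 0.69 ± 0.11 (SE) on the log2 scale, about 1.61-fold lower (adjusted p = 0.0166 by edgeR's quasi-likelihood test with Benjamini-Hochberg adjustment). Without control replicate 2 the adjusted p was 0.11, without TGF-β replicate 1 it was 0.0855, without TGF-β replicate 3 it was 0.0512, and with all 12 libraries in 1 model it was 0.147, with log2 differences from -0.66 to -0.60 in those fits.

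SGCE read 50.6, 48.2 and 48.6 CPM in the PEO4 controls and 43.5, 50.2 and 44.6 CPM with TGF-β. The groups overlapped, and the log2 difference of -0.14 ± 0.08 (SE) did not pass (adjusted p = 0.418 by edgeR's quasi-likelihood test with Benjamini-Hochberg adjustment). Counts of PEG10 per count of SGCE were 13.7, 14.5 and 13.4 in the controls and 9.61, 10.4 and 8.59 with TGF-β. The ratio was 13.9 ± 0.564 (SD, n = 3) in the controls and 9.53 ± 0.894 (SD, n = 3) with TGF-β, with no overlap, and a two-sided exact permutation test gave p = 0.1, the smallest that 3 against 3 libraries allow. In SW620 the same ratio was 11.9, 12.9 and 12.8, and in SW480, on few SGCE counts, it was 3.22, 2.38 and 5.67.

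**Figure D1:**
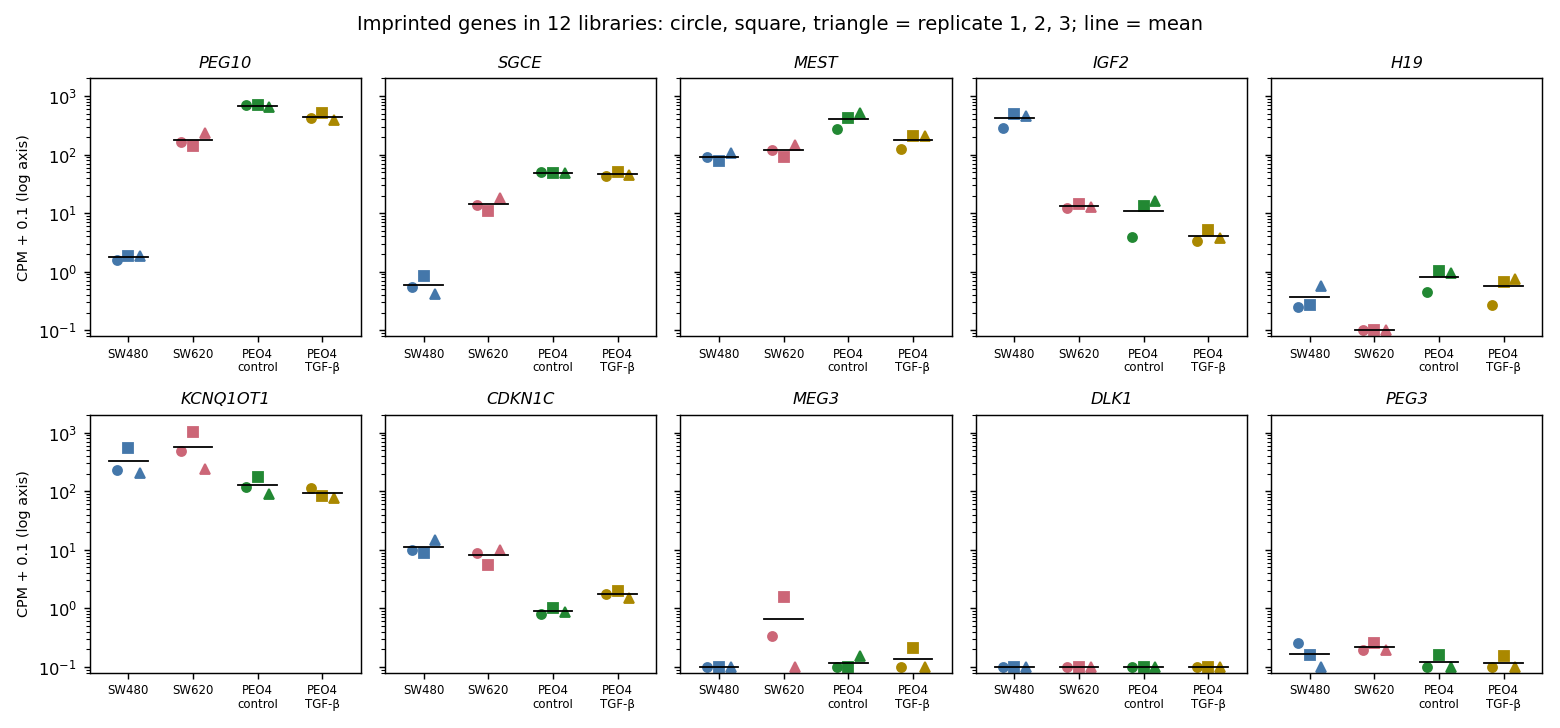
CPM plus 0.1 on a log axis for the 10 genes in each library, by group; the symbol gives the replicate number and the line the group mean (n = 3). PEG10 and SGCE are low in SW480 alone, IGF2 is high in SW480 alone, and DLK1 is at 0 in every library.

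Of 18 genes of the count table within 0.5 Mb of the pair, 7 passed the filter on low counts in the comparison of the SW lines. Beside the pair, 0 of the other 5 were called higher in SW620 and 2 were called lower, where 13.5% of all genes tested were higher and 17.0% lower, so with 5 genes little can be read from the counts. CASD1, a sialic acid acetyltransferase gene that starts 147 kb from PEG10 on the side of SGCE, fell by 1.12 ± 0.18 (SE) on the log2 scale, from 51.5 to 23.2 CPM (adjusted p = 0.00155 by edgeR's quasi-likelihood test with Benjamini-Hochberg adjustment). PPP1R9A, an imprinted gene for the actin-binding protein neurabin that starts 251 kb away, fell by 1.07 ± 0.17 (SE), from 109 to 50.9 CPM (adjusted p = 0.00131 by the same edgeR test). COL1A2, AC002429.1 and AC002429.2 did not pass, with log2 differences of -1.16, -1.27 and -1.15.

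**Figure D2:**
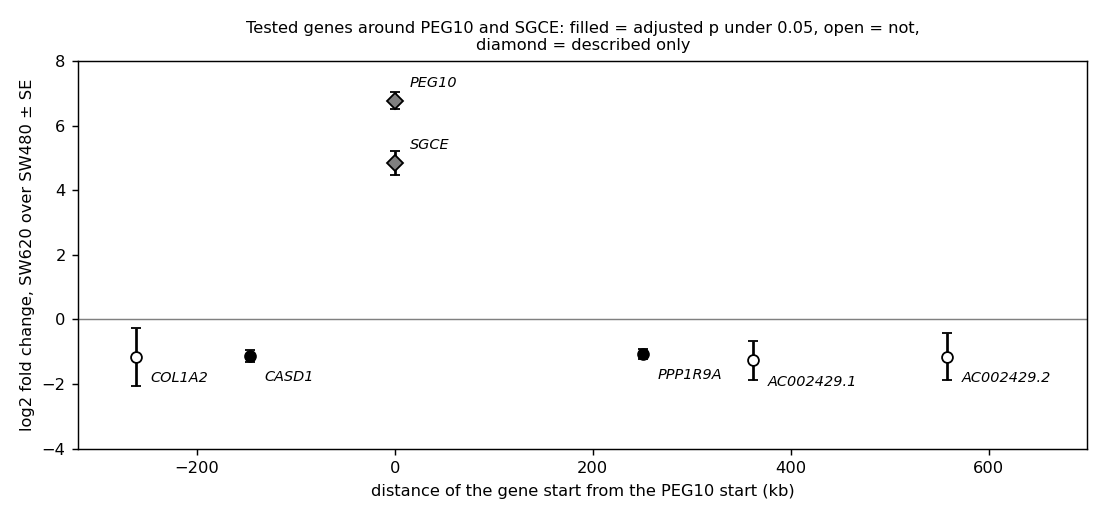
Log2 fold change of SW620 over SW480 with its SE for the 7 tested genes around PEG10, against the distance of each start from the PEG10 start in kb. PEG10 and SGCE are at 6.76 and 4.84, and the other 5 genes lie between -1.27 and -1.07, with CASD1 and PPP1R9A past the threshold.

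Over the 12 libraries the genes whose log2 CPM followed that of PEG10 most closely, among 23457 genes, were HLTF and FRK (Pearson's r = 0.995 each), HIST1H1D (0.994), CASP4 (0.993) and LARP4B (0.991). SGCE came in place 7 for PEG10, at 0.991. For SGCE the closest were USP54, MOCOS and GPR39 (0.994 each), LARP4B (0.993) and WT1-AS (0.992), and PEG10 came in place 7. The 12 points share 3 cell lines, so these values describe a common pattern of low in SW480, middle in SW620 and high in PEO4.

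MEST, a paternally expressed gene for a hydrolase-like membrane protein of mesoderm and fetal tissue, was highest in PEO4 and fell there with TGF-β. The gene (ENSG00000106484, chr7:130486171-130506465, plus strand) lies on the same chromosome as PEG10. It read 275, 420 and 514 CPM in the PEO4 controls and 123, 208 and 206 CPM with TGF-β. The groups did not overlap although the controls were widely spread. MEST fell by 1.23 ± 0.25 (SE) on the log2 scale, about 2.34-fold lower (adjusted p = 0.0433 by edgeR's quasi-likelihood test with Benjamini-Hochberg adjustment). The call held without control replicate 1 (log2 difference -1.44) and was lost without control replicate 2 (adjusted p = 0.198), control replicate 3 (0.095), TGF-β replicate 1 (0.129), TGF-β replicate 2 (0.123) and TGF-β replicate 3 (0.0732), with log2 differences from -1.36 to -1.02.

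In the SW lines MEST read 91.5, 77.8 and 107 CPM in SW480 and 118, 92 and 146 CPM in SW620. The lines overlapped, and the log2 difference of 0.39 ± 0.19 (SE) did not pass (adjusted p = 0.169 by edgeR's quasi-likelihood test with Benjamini-Hochberg adjustment). Without SW620 replicate 2 it passed, at 0.57 (adjusted p = 0.0337). It also passed under total-count scaling (adjusted p = 0.0261), under upper quartile scaling (0.0489) and with the replicate number as a block (0.00729). MEST shares exon bases with MESTIT1 and COPG2 on the other strand, so reads there cannot be placed.

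A promoter of MEST is printed because MEST is the member that TGF-β moved most among those called, and RefSeq lists starts for it. It shows the 250 bases before the start at position 130492058 (chr7:130491808-130492057, plus strand, GRCh38.p14), which touch no GENCODE 29 exon, with each CG, the dinucleotide that imprint methylation acts on, in capitals:
MEST promoter: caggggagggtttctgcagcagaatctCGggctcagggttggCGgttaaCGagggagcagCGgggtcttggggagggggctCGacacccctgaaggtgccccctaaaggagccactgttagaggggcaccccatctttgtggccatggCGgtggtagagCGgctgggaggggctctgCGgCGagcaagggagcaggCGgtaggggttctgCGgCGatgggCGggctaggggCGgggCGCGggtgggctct
The window holds 16 CG, and 41.0% of 35116 RefSeq promoter windows of that length hold as many or more, with a median of 11. CAGAC, a sequence that SMAD proteins of the TGF-β pathway can bind, was searched on both strands and is not in these letters. Of the 5 MEST windows in RefSeq, 1 holds it, the 250 bases before the start at position 130491329, and 38.0% of all windows do. Methylation and factor binding were not measured here.

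On chromosome 11, IGF2, H19, KCNQ1OT1 and CDKN1C lie in the imprinted cluster of Beckwith-Wiedemann syndrome. IGF2 (ENSG00000167244, chr11:2129112-2149603, minus strand), the fetal growth factor that signals through IGF1R and INSR, was abundant in SW480 alone. It had 5663, 8805 and 8978 counts in SW480, or 286, 500 and 465 CPM. In SW620 it had 253, 276 and 268 counts, or 12.2, 14.2 and 12.7 CPM. The lines did not overlap.

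IGF2 fell by 4.97 ± 0.28 (SE) on the log2 scale in SW620, about 31.4-fold lower (adjusted p = 5.52e-06 by edgeR's quasi-likelihood test with Benjamini-Hochberg adjustment). It was the only 1 of the 4 other members that passed the filter to be called between the SW lines (0 higher, 1 lower), where 30.5% of 20941 genes tested were called, 13.5% higher and 17.0% lower in SW620. The call held in all 16 alternatives, with log2 differences from -5.16 to -4.82. Overlapping INS-IGF2 had 0 to 13 counts in any library and IGF2-AS 0 to 7.

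In PEO4, IGF2 was low. It read 3.87, 13 and 16 CPM in the controls and 3.28, 5.13 and 3.65 CPM with TGF-β. Control replicate 1 lay among the treated libraries, so the groups overlapped. The log2 difference of -1.51 ± 0.45 (SE) did not pass (adjusted p = 0.134 by edgeR's quasi-likelihood test with Benjamini-Hochberg adjustment). Without control replicate 1 it was -1.91 (adjusted p = 0.00152), DESeq2 on the same counts gave an adjusted p of 0.00502, and the authors' deposited table lists an adjusted p of 0.00528.

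H19 (ENSG00000130600, chr11:1995176-2001470, minus strand), the maternally expressed RNA next to IGF2 and the source of miR-675, was close to the limit of counting everywhere. It had 3, 3 and 9 counts in SW480 and 0 in every SW620 library. In PEO4 it had 6, 16 and 16 counts in the controls and 3, 10 and 13 with TGF-β. H19 passed the filter in PEO4 only, where the log2 difference of -0.65 ± 0.57 (SE) did not pass (adjusted p = 0.623 by edgeR's quasi-likelihood test with Benjamini-Hochberg adjustment). In the SW lines H19 entered the edgeR fit in 2 alternatives and passed as lower in SW620 in both, with adjusted p = 0.017 with no filter and 0.00696 with all 12 libraries in 1 model. In SW480, where IGF2 stood at 417 CPM ± 115 (SD, n = 3), H19 stood at 0.263 ± 0.177 (SD, n = 3).

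KCNQ1OT1 (ENSG00000269821, chr11:2608328-2699994, minus strand), a paternally expressed nuclear RNA made antisense within KCNQ1 that silences its neighbours, varied more between replicates than between the SW lines. It read 230, 546 and 205 CPM in SW480 and 494, 1016 and 236 CPM in SW620. Replicate 2 was the highest library in both lines, and the lines overlapped. The log2 difference of 0.87 ± 0.56 (SE) did not pass (adjusted p = 0.279 by edgeR's quasi-likelihood test with Benjamini-Hochberg adjustment), and it was 0.22 when SW620 replicate 2 was left out and 1.47 when SW480 replicate 2 was. With both replicates 2 left out, an alternative chosen after seeing the data, it was 0.78 (adjusted p = 0.102).

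The nuclear RNAs NEAT1 and MALAT1 were also highest in replicate 2 of each SW line. NEAT1 read 2478, 6059 and 2628 CPM in SW480 and 1576, 3010 and 332 in SW620. MALAT1 read 4597, 6608 and 4285 CPM in SW480 and 7410, 8812 and 3649 in SW620. Their part in the KCNQ1OT1 values was not tested. In PEO4, KCNQ1OT1 read 117, 175 and 90.6 CPM in the controls and 115, 83.9 and 77.8 CPM with TGF-β, and the log2 difference of -0.53 ± 0.25 (SE) did not pass (adjusted p = 0.327 by edgeR's quasi-likelihood test with Benjamini-Hochberg adjustment). Without control replicate 2 it was -0.18.

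**Figure D3:**
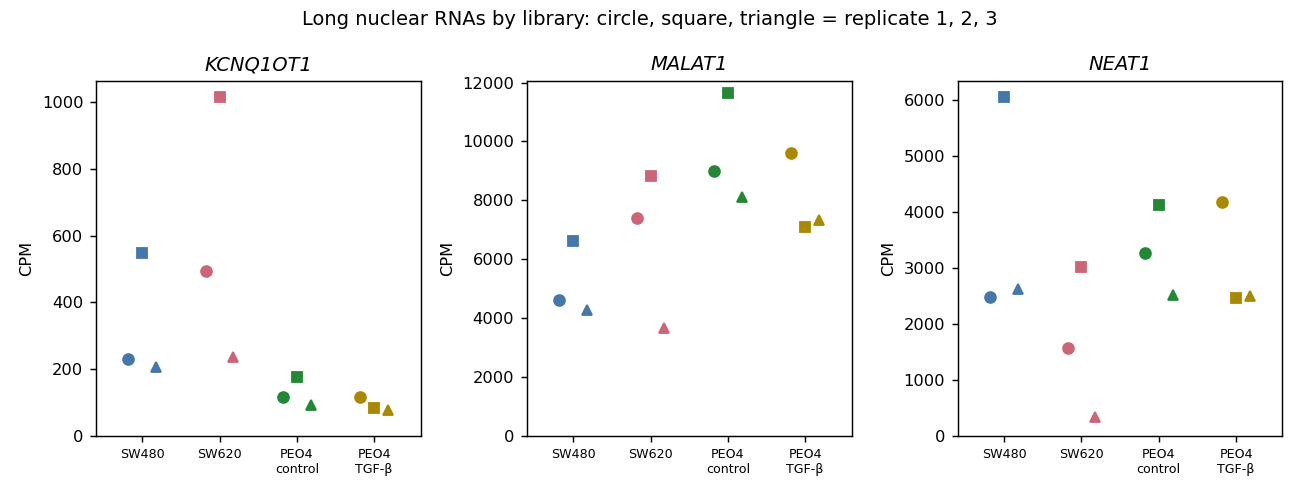
CPM of KCNQ1OT1, MALAT1 and NEAT1 by group, with the symbol giving the replicate. In both SW lines replicate 2 (square) is the highest library for all 3 RNAs, up to 1016 CPM of KCNQ1OT1 in SW620.

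KCNQ1, the potassium channel gene that hosts KCNQ1OT1, fell in SW620 by 2.62 ± 0.29 (SE) on the log2 scale (adjusted p = 0.000187 by edgeR's quasi-likelihood test with Benjamini-Hochberg adjustment). It had 147, 134 and 143 counts in SW480 and 31, 21 and 21 in SW620, with no overlap. The annotated exons of KCNQ1 and KCNQ1OT1 share 121 bases on opposite strands.

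CDKN1C (ENSG00000129757, chr11:2883213-2885773, minus strand), the maternally expressed inhibitor of cyclin-dependent kinases also called p57, was low in PEO4 and moderate in the SW lines. It read 9.74, 8.87 and 14.8 CPM in SW480 and 8.68, 5.32 and 9.83 CPM in SW620. The lines overlapped, with a log2 difference of -0.46 ± 0.28 (SE) that did not pass (adjusted p = 0.257 by edgeR's quasi-likelihood test with Benjamini-Hochberg adjustment) and was -0.21 without SW620 replicate 2 and -0.22 without SW480 replicate 3. In PEO4 it read 0.694, 0.913 and 0.782 CPM in the controls and 1.67, 1.86 and 1.4 CPM with TGF-β. Every treated library was above every control, on 12 to 16 counts against 28 to 33, and the log2 difference of 0.98 ± 0.32 (SE) did not pass (adjusted p = 0.175 by the same edgeR test).

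With TGF-β, 7 of the 10 members passed the filter in PEO4 and 2 were called, both lower (PEG10 and MEST), where 2.26% of 19064 genes tested were called, 1.27% higher and 0.991% lower. At an unadjusted p under 0.05 the edgeR test gave 4 of the 7, beside 16.7% of all genes, and DESeq2 called 3 at the adjusted threshold, beside 5.07%. The median log2 difference of the 7 was -0.65, against -0.02 over all genes tested. The members were chosen with earlier results of these data known, so these shares and medians are a description.

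On chromosome 14, DLK1 (ENSG00000185559, chr14:100725705-100738224, plus strand), a paternally expressed inhibitor of adipocyte differentiation, had 0 counts in every library. MEG3 (ENSG00000214548, chr14:100779410-100861031, plus strand), the maternally expressed RNA of that cluster, had 0 counts in SW480 and 5, 28 and 0 in SW620. Its counts in PEO4 were 0, 0 and 1 in the controls and 0, 2 and 0 with TGF-β. SW620 replicate 2 thus held 28 of the 36 MEG3 counts, and that library also held 251 counts of the colorectal antigen CEACAM5 against 0 to 3 in the others.

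PEG3 (ENSG00000198300, chr19:56810077-56840728, minus strand), a paternally expressed zinc finger gene often silenced in ovarian tumours, had 3, 1 and 0 counts in SW480 and 2, 3 and 2 in SW620. In PEO4 it had 0, 1 and 0 counts in the controls and 0, 1 and 0 with TGF-β. DLK1, MEG3 and PEG3 passed the filter in no comparison. With no filter MEG3 passed the edgeR threshold as higher in SW620 (adjusted p = 0.00218), on counts of which most came from replicate 2, and PEG3 passed in no comparison. With 0 counts for DLK1 in any library, no difference was detectable at this depth.

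Per kilobase of exon, IGF2 was the highest member in SW480 at 59.8 ± 16.5 CPM per kb, followed by MEST at 19.2 ± 3.04 (SD, n = 3). In SW620 PEG10 at 26.6 ± 7.31 and MEST at 24.7 ± 5.64 did not differ beyond their spread, and KCNQ1OT1 at 6.35 ± 4.33 overlapped CDKN1C at 3.2 ± 0.946 (SD, n = 3). In PEO4 control PEG10 at 102 ± 3.81 and MEST at 84.1 ± 25.2 led and did not differ beyond their spread, followed by SGCE at 2.35 ± 0.0611 (SD, n = 3). With the longest transcript as the length, MEST stood above PEG10 in SW620 (47.3 against 26.9) and in PEO4 control (161 against 103).

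PEO4 control was set against the SW lines over 9 libraries, as the difference from the mean of SW480 and SW620. Patient, tissue, medium and line cannot be told apart in it, and it shares the SW libraries with the comparison above. PEG10 and SGCE were selected on SW values that this difference uses, so they are again described with no test. Of the other 8 members, 4 passed the filter and all 4 were called (1 higher and 3 lower in PEO4), where 58.0% of 22936 genes tested were called, 28.9% higher and 29.1% lower. The log2 difference was 5.31 ± 0.17 (SE) for PEG10 and 4.20 ± 0.19 for SGCE, with every PEO4 control above every SW library. MEST was higher in PEO4 by 1.95 ± 0.19 (adjusted p = 3.21e-06 by edgeR's quasi-likelihood test with Benjamini-Hochberg adjustment).

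CDKN1C was lower in PEO4, at a log2 difference of -3.55 ± 0.31 (SE), and KCNQ1OT1 at -1.79 ± 0.47, with adjusted p = 8.58e-07 and 0.00623 by the edgeR test. IGF2 was at -2.76 ± 0.38 (adjusted p = 5.23e-05 by the edgeR test), a value set by SW480: the PEO4 controls (3.87 to 16 CPM) spanned the SW620 libraries (12.2 to 14.2 CPM). Total-count scaling moved the median of all genes from -0.08 to -0.36 and the calls from 6626 higher and 6678 lower to 5176 higher and 8630 lower. It left the 4 member calls in place. H19 entered this fit in 10 alternatives and passed as higher in PEO4 in each, with adjusted p from 2.08e-05 to 0.00349 by edgeR.

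**Figure D4:**
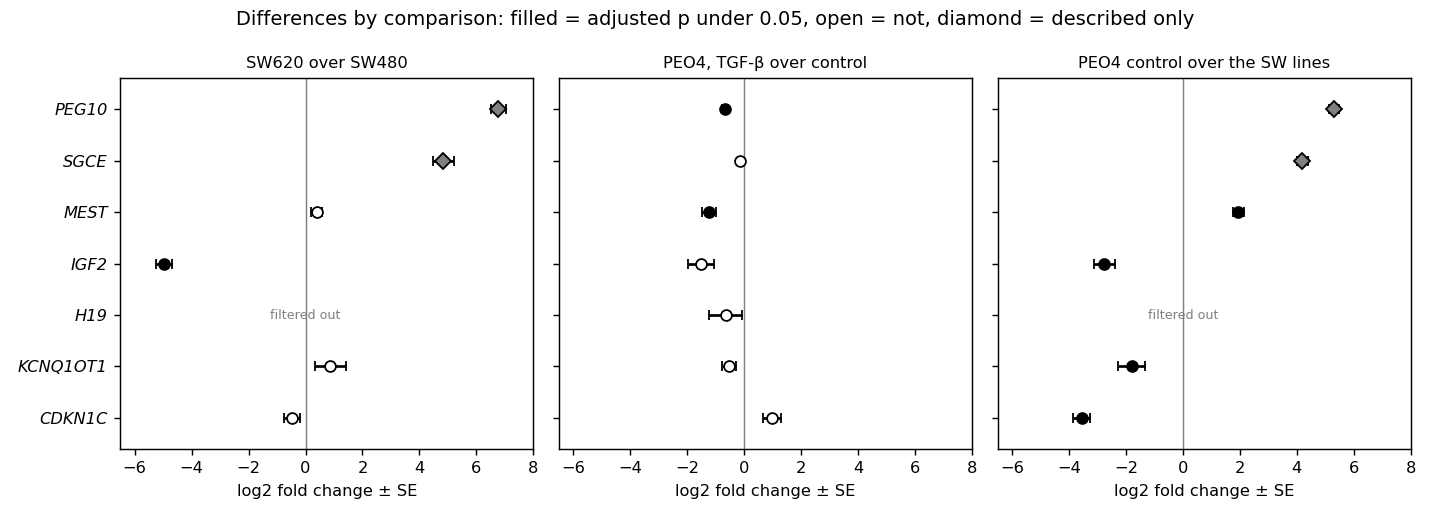
Log2 fold change with its SE for the members that passed the filter, in the 3 comparisons; filled points passed an adjusted p of 0.05, open points did not, and diamonds are described without a test. IGF2 is the called member in the SW lines at -4.97, PEG10 and MEST are the called members with TGF-β, and the 4 members with a test are called between PEO4 and the SW lines.

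Other imprinted genes were taken from a list of 47, of which 28 were tested in the SW lines. There 6 were higher and 8 lower in SW620, where 13.5% of all genes tested were higher and 17.0% lower, with a median log2 difference of -0.44 over the 28 against 0.03 over all genes. DIO3, which lies in the DLK1 cluster and inactivates thyroid hormone, rose by 1.54 ± 0.28 (SE), from 7.09 to 20.4 CPM, while DLK1 had 0 counts. MKRN3, a puberty-timing ubiquitin ligase, rose by 2.10 ± 0.22, and ATP10A, a phospholipid flippase, by 1.23 ± 0.27. DDC, the decarboxylase of dopamine and serotonin synthesis, had 2, 1 and 1 counts in SW480 and 70, 131 and 159 in SW620. Their adjusted p-values were 0.0028, 0.000132, 0.00718 and 4.79e-05 by edgeR's quasi-likelihood test with Benjamini-Hochberg adjustment.

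Among the lower genes, ZNF331, a zinc finger gene, had 178, 277 and 203 counts in SW480 and 4, 7 and 6 in SW620, a log2 difference of -5.34 ± 0.40 (SE). KLF14, a Krüppel-like factor near MEST, had 47, 44 and 47 counts in SW480 and 4, 5 and 2 in SW620. PLAGL1, a zinc finger factor known to activate imprinted genes, fell by 1.54 ± 0.15, from 36.0 to 12.1 CPM, and GRB10, an adaptor that dampens insulin and IGF signalling, fell by 1.18 ± 0.17, from 54.3 to 23.5 CPM. Their adjusted p-values were 1.92e-05, 0.000577, 9.48e-05 and 0.000969 by the edgeR test. Of the 14 calls, 10 held with any library left out. NAA60, SGK2, SLC22A18 and ZDBF2 were each lost without SW480 replicate 1. NAA60, SGK2 and SLC22A18 were also lost without SW480 replicate 3, SLC22A18 and NAA60 without SW620 replicate 1, and NAA60 without SW480 replicate 2 or SW620 replicate 3 or with no filter (adjusted p = 0.0855). Their highest adjusted p over the alternatives was 0.177, 0.0683, 0.0796 and 0.072.

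With TGF-β, 28 genes of that list were tested in PEO4, and 1 was higher and 2 were lower, beside 1.27% and 0.991% over all genes. ATP10A rose by 1.62 ± 0.19 (SE), from 28.2 to 89.1 CPM (adjusted p = 0.00403 by edgeR's quasi-likelihood test with Benjamini-Hochberg adjustment). CPA4, a carboxypeptidase gene near MEST, fell by 1.55 ± 0.20, from 135 to 47.9 CPM (adjusted p = 0.00721 by edgeR), and DDC fell by 1.32 ± 0.21 (adjusted p = 0.0154 by edgeR). The CPA4 call was lost without control replicate 2 (adjusted p = 0.0531). The DDC call was lost without control replicate 2, TGF-β replicate 1 or TGF-β replicate 3 and with all 12 libraries in 1 model, up to an adjusted p of 0.084. The median of the 28 was -0.08 against -0.02 over all genes.

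Between PEO4 control and the SW lines, 19 of 33 tested genes of the list were higher and 8 lower, where 28.9% of all genes tested were higher and 29.1% lower, with a median of 0.59 against -0.08 over all genes. The calls of ZDBF2 and NAP1L5, both higher, were lost with total-count scaling (adjusted p = 0.282 and 0.0557 by edgeR), that of ZDBF2 also without PEO4 control replicate 1 (0.0771) or SW480 replicate 3 (0.0693), and that of NAP1L5 without PEO4 control replicate 3 (0.0563). TFPI2, a protease inhibitor whose gene lies near PEG10 on 7q, was higher in PEO4, at 34.0 CPM against 0.362. Genes of the Prader-Willi region on chromosome 15 were also higher in PEO4, with SNRPN at 52.2 against 0.728 CPM and SNHG14 at 73.7 against 6.47 CPM, while MKRN3 of that region was lower, at 0.194 against 8.1 CPM. PLAGL1 was lower too, at 0.665 against 24.1 CPM.

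**Figure D5:**
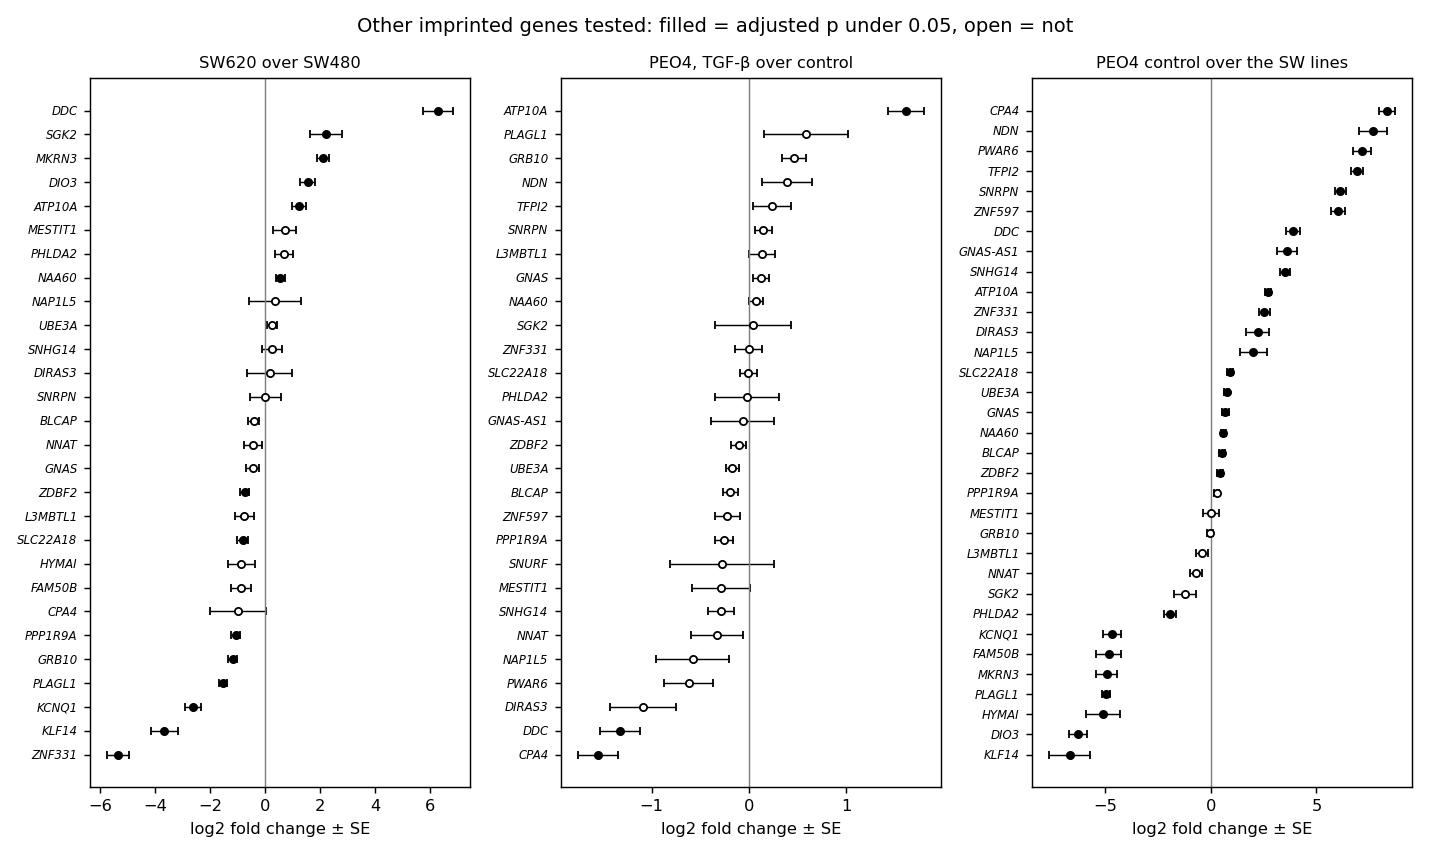
Log2 fold change with its SE for every tested gene of the list of other imprinted genes, in the 3 comparisons on separate axes; filled points passed an adjusted p of 0.05. Calls go both ways between the SW lines (6 higher, 8 lower), 3 genes are called with TGF-β, and 27 of 33 are called between PEO4 and the SW lines.

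The list of the IGF2 pathway held receptors of IGF2, proteins that carry it or relay its signal, and proteins that bind its mRNA. It also held the related ligand IGF1 and the transcription factor PLAG1. Of 15 tested genes of this list, 1 was higher and 7 lower in SW620, beside 13.5% and 17.0% over all genes. The median log2 difference was -0.31 against 0.03 over all genes. The binding protein IGFBP3, which carries IGFs and limits their access to receptors, fell by 4.98 ± 0.26 (SE), from 91.0 to 2.81 CPM. IGFBP2 fell by 3.01 ± 0.43, IGFBP6, which prefers IGF2, by 1.70 ± 0.28, and IGF2BP2, which binds IGF2 mRNA, by 0.88 ± 0.16. Adjusted p-values were 4.06e-06, 0.000844, 0.00175 and 0.00259 by edgeR's quasi-likelihood test with Benjamini-Hochberg adjustment.

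IGFBP1 was higher in SW620, at 4.73 against 0.306 CPM, and IGF1 was at 16, 16 and 23 counts in SW480 against 1, 1 and 0 in SW620. Calls of IGFBP4 and IRS1 were lost without SW480 replicate 1, SW480 replicate 3 or SW620 replicate 1, with adjusted p up to 0.107 and 0.117. With TGF-β 1 of 15 tested genes was called, as higher, beside 1.27% higher and 0.991% lower over all genes (median 0.17 against -0.02). This was IGFBP5, at 17.8 against 6.01 CPM, with adjusted p = 0.0245 by edgeR. Its call was lost without control replicate 2 or any TGF-β library and with all 12 libraries in 1 model (adjusted p up to 0.151).

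Between PEO4 and the SW lines 9 of 16 genes of the IGF2 pathway were higher in PEO4 and 3 lower, beside 28.9% and 29.1% over all genes, with a median of 0.69 against -0.08. Without PEO4 control replicate 1 the calls of IGFBP2 (lower) and IGFBP6 (higher) were lost, with adjusted p = 0.0873 and 0.0778 by edgeR. IGF2BP1, an oncofetal protein that binds IGF2 mRNA, stood at 1.03 CPM in PEO4 against 210 in the SW lines. IGF1R, the main signalling receptor for IGF2, was higher by 0.75 ± 0.14 (SE), at 373 against 221 CPM (adjusted p = 0.000506 by edgeR's quasi-likelihood test with Benjamini-Hochberg adjustment).

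In the SW lines 20 genes that set, keep or read imprints and related chromatin marks were tested. Of these 5 were higher and 1 lower in SW620, beside 13.5% and 17.0% over all genes. With both directions together the share called was close to the 30.5% over all genes. Their median log2 difference was 0.18. TET1 and TET2, both enzymes that oxidise methylated cytosine, moved in opposite directions: TET1 rose by 2.34 ± 0.21 (SE), from 16.0 to 79.2 CPM, and TET2 fell by 1.72 ± 0.21, from 60.8 to 18.2 CPM (adjusted p = 6.08e-05 and 0.000295 by edgeR's quasi-likelihood test with Benjamini-Hochberg adjustment). Calls of SETDB1, EHMT2, EZH2 and CTCF, all higher by 0.53 to 0.70 on the log2 scale, were each lost without SW480 replicate 1 or 3, and in part without SW480 replicate 2, SW620 replicate 1 or SW620 replicate 3, with adjusted p up to 0.0932, 0.103, 0.159 and 0.127. EZH2 was also lost with no filter (0.115). With TGF-β edgeR called 0 of 21, with 4 at an unadjusted p under 0.05, close to the 16.7% over all genes. DESeq2 and limma-voom called 0 as well, where they called 5.07% and 2.27% of all genes (median -0.04). Between PEO4 and the SW lines 6 of 21 were higher, close to the 28.9% over all genes, and 9 lower, beside 29.1% (median -0.25). UHRF1, which guides maintenance methylation, was at 22.3 CPM in PEO4 against 107. Of the 6, EED lost its call in 10 of 19 alternatives, among them each library left out except SW620 replicates 2 and 3 (adjusted p up to 0.137 there and 0.622 with total-count scaling, by edgeR), and EHMT2 lost it with total-count scaling (0.0933).

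CDKN1C was set beside 6 other inhibitors of cyclin-dependent kinases. CDKN1A, the p53 target p21, fell by 4.07 ± 0.27 (SE) in SW620, from 76.8 to 4.45 CPM, and rose with TGF-β in PEO4 by 0.99 ± 0.09, from 29.8 to 61.5 CPM (adjusted p = 1.04e-05 and 0.002 by edgeR's quasi-likelihood test with Benjamini-Hochberg adjustment). CDKN2A was higher in SW620 by 0.57 ± 0.17 (adjusted p = 0.0346 by edgeR), a call lost without any single library other than SW620 replicate 2 (adjusted p up to 0.154), with all 12 libraries in 1 model (0.17) and with no filter (0.075). No other of the 6 was called in the SW lines, so 1 was higher and 1 lower, beside 13.5% and 17.0% of all genes tested. With TGF-β 4 of them were tested and 1 was called, as higher, beside 1.27% of all genes tested. Between PEO4 and the SW lines 3 of the 6 were higher in PEO4 and 2 lower, where 58.0% of all genes tested were called, with CDKN2A at 0.578 CPM in PEO4 against 54.3. CDKN1A counted as higher there since the fit averages log levels of the SW lines, while its mean CPM was 29.8 in PEO4 against 40.6, and it lost the call with total-count scaling (adjusted p = 0.059 by edgeR).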

How the data were processed

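RNA-seq counts of 12 libraries were analysed. The deposited table holds whole-number read counts per Ensembl gene, made by the authors with Trimmomatic 0.36, STAR 2.5.2b and featureCounts of Subread 1.5.2 on GRCh38, per the submitters' processing notes. The annotation and strand use are not given in the sources used here. The authors' deposited tables of comparisons give log2 fold changes and adjusted p-values (DESeq2, per the submitters' processing notes), used only where named. Of 57500 IDs, 56898 were in GENCODE 29, from which positions and lengths were taken, and the counting may have used another release.

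Comparisons of SW620 with SW480 and of PEO4 with TGF-β with control used 6 libraries each, and PEO4 control against the SW lines used 9. After filterByExpr and TMM scaling, genes were tested with edgeR 4.0.16 (glmQLFit and glmQLFTest, two-sided, R 4.3.3), with Benjamini-Hochberg adjustment over all genes tested and a threshold of 0.05. The SE is the log2 fold change over the square root of F. The labels call the replicates biological; p-values measure the spread between these libraries. Levels are CPM on TMM scaling over all libraries. The labels name no molecular identifiers, so limits cover counting error only.

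The members and lists were chosen with earlier results of these data known. Named genes are the 10 members, list genes past the threshold, tested genes within 0.5 Mb of PEG10 and SGCE, and the 5 named genes of highest correlation with each. Some list genes past the threshold are given by count only. A pseudocount of 0.5 CPM was used for correlations. Sequences came from GENCODE 29 transcripts and from RefSeq promoters (GRCh38.p14), which held 3 of the 10 members. Alternatives were DESeq2 1.42.0, limma-voom 3.58.1, RLE, total-count and upper quartile scaling, dropping the low-count filter, a minimum of 10 counts in each library, a single model of all 12 libraries, a block for the replicate number, each library left out, and, chosen after seeing the data, both SW replicates 2 left out. The fit was tested on simulated counts with known changes. Of 2-fold changes it recovered 45.5% between the SW lines, 66.0% with TGF-β and 55.8% between PEO4 control and the SW lines. Of 4-fold changes it recovered 83.0%, 94.7% and 87.6% in the same order. A gene that did not pass is therefore not shown to be unchanged.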

Additional observations from a re-analysis of the deposited data

How the results depend on the processing

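No result changed sign while called in any fit. Between the SW lines, the 4 members with a test gave 64 alternative values, of which 58 kept their side of the threshold and 6 newly passed it. With TGF-β the 7 members gave 103 values, of which 9 lost the call and 5 newly passed. Between PEO4 and the SW lines all 76 values of the 4 members with a test kept theirs. Members called in the SW lines, PEG10 and SGCE left out, were 1 of 8, of which 4 had a test, where 6385 of 20941 genes were called. They were 2 with total-count scaling (6925 of 20941 genes) and 2 with upper quartile scaling (6895 of 20941). With no filter they were 3 (H19 and MEG3 added), where 7229 of 39986 genes passed. With all 12 libraries in 1 model they were 2 (H19 added), where 8418 of 23457 passed. With TGF-β they were 2 of 10, of which 7 had a test, where 431 of 19064 genes were called. They were 4 with no filter (1457 of 38108 genes) and 1 with all 12 libraries in 1 model (165 of 23457). Leaving out each replicate in turn gave 1 to 2 in the SW lines and 0 to 3 with TGF-β. Genes past the threshold with TGF-β, 431, were 967 by DESeq2, 1457 with no filter, 165 with all 12 libraries and 72 to 1080 with each replicate left out, and those in the SW lines, 6385, were 4253 to 7419 with each replicate left out. The causes were not tested.

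Same-numbered replicates correlated in their deviations from the group means at 0.0627, 0.72 and 0.63 in the SW lines and at 0.334, -0.117 and 0.527 in PEO4. Different numbers correlated at -0.674 to 0.332 in the SW lines and at -0.51 to 0.215 in PEO4. Replicates 2 and 3 of the SW lines and 1 and 3 of PEO4 correlated best with their own number, and the others did not. The main fits did not take the numbers as pairs, so any effect shared by same-numbered replicates stays in their spread. Its source was not tested. With the replicate number as a block, 10667 of 20941 genes and all 4 members with a test (MEST, KCNQ1OT1, CDKN1C and IGF2) passed in the SW lines. In PEO4, 2102 of 19064 genes and 3 of 7 members (IGF2 added) passed. Between PEO4 and the SW lines, 14750 of 22936 genes and all 4 members with a test passed. No gene met the stricter minimum of 300 CPM for the PEO4-like share, so that alternative gave no value.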
